A study of Homo sapiens with 18 samples.

Results

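The baseline transcriptomes of Detroit 562 and FaDu, a pair of established human pharyngeal squamous carcinoma cell lines, were compared in the untreated libraries. All genes with enough counts entered the comparison, which left 15475 of the 19901 rows of the count table. Detroit 562 was grown from a metastatic site (pleural effusion) of a tumor of the pharynx, and FaDu from a primary tumor of the hypopharynx. Both were cultured in MEM-α, and 3 untreated libraries of each line were compared. The series of 18 libraries also holds 3 libraries of each line treated with 50 ng/mL HGF (hepatocyte growth factor, the ligand of the Met receptor) for 16 h by the sample labels, and the same groups of the tongue carcinoma line SCC-9, cultured in another medium with hydrocortisone. Each line stands for 1 tumor, so a difference between them is a difference between 2 lines and not between metastatic and primary disease. The experiment was run 3 times, and whether the runs came from separately thawed cultures is not stated. The p values thus measure the spread between libraries, estimated from all 18 in 1 fit, which may be partly technical.

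Squamous epithelium of the throat renews itself from a basal layer, which carries the transcription factor p63, the basal keratins K5 and K14 and hemidesmosomes that bind the basement membrane. Cells that leave this layer change keratins, build desmosomes and a cornified envelope, or, in the glands of the mucosa, make mucins and defence proteins. Carcinoma lines keep parts of these programs to different degrees, together with the growth factor receptors and the losses of signaling genes that arose in each tumor.

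Total counts ranged from 37431702 to 42879349 in untreated Detroit 562 and from 39410093 to 42431562 in untreated FaDu. Mitochondrial genes took 1.44% to 1.84% of the counts in Detroit 562 and 0.913% to 1.62% in FaDu. Log2 values of libraries of 1 line correlated across genes at 0.991 to 0.996, and those of different lines at 0.868 to 0.88, where genes are not independent replicates. By these correlations no untreated library stood apart from its line. In single genes, such as PIGR and COL1A2 below, replicate 3 of Detroit 562 departed from replicates 1 and 2. Values are TMM-normalized counts scaled to library size (CPM), in the order of replicates 1, 2 and 3, and fold changes are Detroit 562 over FaDu on the log2 scale.

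At the study's thresholds (adjusted p under 0.1, log2 fold change of 0.4 or more in either direction) 9447 genes differed, which is 61% of all genes tested. Of these, 4833 were higher in Detroit 562 (31.2% of those tested) and 4614 in FaDu (29.8%). Because most genes differed by this rule, a stricter one was used to describe lists. By it, 2128 genes were past 4-fold (adjusted p under 0.01, log2 fold change of 2 or more in either direction), 13.8% of those tested, with 1277 higher in Detroit 562 (8.25%) and 851 higher in FaDu (5.5%). In 2126 of the 2128, the 3 libraries of one line all lay above the 3 of the other. This largely follows from the rule that chose them and is no separate support. The median log2 fold change over all genes was -0.01 and the median absolute value 0.63.

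Both lines carried the epithelial markers in every library. EPCAM, an epithelial adhesion molecule, was at 429, 416 and 433 CPM in Detroit 562 and 160.3, 132 and 156 CPM in FaDu. CDH1, which encodes E-cadherin, was at 333, 307 and 266 CPM in Detroit 562 and 292, 264 and 221 CPM in FaDu and was not called (log2 fold change 0.22, adjusted p = 0.0584). The sum of 7 epithelial markers ranged from 6017 to 8625 CPM in Detroit 562 and from 4231 to 8025 CPM in FaDu. The sum of 8 squamous markers was lower in each Detroit 562 library (2757 to 3952 CPM) than in any FaDu library (5788 to 8719 CPM). Most of the sum in FaDu was KRT5, and KRT6A, another of the 8, was on the other side, at 688, 626 and 605 CPM in Detroit 562 and 263, 354 and 209 CPM in FaDu. TP63, the gene of p63, was present in both lines, at 131, 116 and 97.5 CPM in Detroit 562 and 169.6, 218 and 195 CPM in FaDu, and was higher in FaDu (log2 fold change -0.76, SE 0.133, adjusted p = 6.95e-05).

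Markers of other cell types were examined in the same libraries. Of 8 immune markers, the pan-leukocyte gene PTPRC and the T-cell gene CD3E had at most 3 counts in every library of both lines. CD68 was at 20.2, 22.5 and 40.3 CPM in Detroit 562 and 16.8, 28.2 and 26.5 CPM in FaDu. CD14 was near 0 in Detroit 562 (0.0236, 0.0815 and 0.0539 CPM) and at 4.72, 6 and 4.15 CPM in FaDu. In SCC-9 it was at 8.01, 9.81 and 8.84 CPM. The 8 fibroblast markers summed to 30.2 to 54.6 CPM in Detroit 562 and 4.25 to 6.96 CPM in FaDu, and almost all of this came from the collagen genes COL1A1 and COL1A2. COL3A1, DCN and LUM, which define fibroblasts, had at most 4 counts in each library of both lines. Of the mesothelial markers, which bear on the pleural origin of Detroit 562, WT1 had 0 counts and CALB2 at most 1 in the Detroit 562 libraries, against 5.96, 4.62 and 8.71 CPM and 6.7, 8.92 and 6.29 CPM in FaDu, while MSLN was at 14.3, 13.8 and 15.6 CPM in Detroit 562 and 4.65, 5.8 and 4.27 CPM in FaDu. UPK3B was at 15.8, 13.8 and 9.69 CPM in Detroit 562 and 7.34, 6.55 and 4.86 CPM in FaDu, BNC1, which squamous basal cells also express, at 55, 54.7 and 70.7 CPM in Detroit 562 and 69.3, 70.1 and 90.6 CPM in FaDu, and LRRN4 had at most 6 counts. The 6 mesothelial markers summed to 82.5 to 96.1 CPM in Detroit 562 and 94.02 to 114.8 CPM in FaDu. The sums of 6 endothelial and 6 neuroendocrine markers did not exceed 8.46 and 1.23 CPM in any of these libraries. Of 5 melanocyte markers, MITF was at 23.5, 22.1 and 26.7 CPM in Detroit 562 and 2.18, 1.83 and 2.58 CPM in FaDu, and TYR, MLANA and DCT had at most 3 counts. In bulk RNA, fewer cells with a transcript and less transcript per cell cannot be told apart.

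The genes with the largest fitted log2 fold changes between the lines were close to an on-off pattern, which this ranking favors. In each direction 15 were taken, among genes with non-overlapping libraries and at least 10 CPM in the higher line, without same-strand overlaps. Against a floor of 3 counts per library the order differs. MEX3C, outside the set, was at least 428.5-fold higher in Detroit 562, and SLC34A2, inside it, at least 148-fold. On the Detroit 562 side CDH6, a cadherin of kidney and embryonic epithelia, led with 414, 421 and 471 CPM in Detroit 562 and 0.0712, 0 and 0 CPM in FaDu. PIGR, the receptor that carries polymeric IgA across mucosal epithelium, was at 117, 132 and 56.4 CPM in Detroit 562 and 0.0475, 0.0251 and 0.0235 CPM in FaDu. KIT, the receptor of stem cell factor, was at 32.8, 33.7 and 25.9 CPM in Detroit 562 and 0, 0 and 0.0235 CPM in FaDu. None of the 3 FaDu libraries came near the lowest Detroit 562 library in these genes, and SCC-9 was also low, with means of 0.104, 0.0409 and 0.359 CPM.

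Further genes on this side were of several kinds. GALNT5, an enzyme that starts mucin-type O-glycosylation, was at 348, 330.2 and 335 CPM in Detroit 562 and 0.0237, 0.226 and 0.117 CPM in FaDu. SCGB3A1, a secretoglobin of airway glands, was at 15.6, 20.02 and 17.7 CPM in Detroit 562 with 0 counts in FaDu, and so at least 246-fold higher against a floor of 3 counts per library. The ectonucleotidase gene ENPP4 (19.9, 17.4 and 19.9 CPM) and the phosphate transporter SLC34A2 (10.8, 11.6 and 9.8 CPM) also had 0 counts in the 3 FaDu libraries and were at least 264-fold and 148-fold higher. ANKRD1, an ankyrin repeat gene that responds to YAP, was at 88.6, 91.6 and 82.5 CPM in Detroit 562 and 0.0237, 0.0502 and 0.0469 CPM in FaDu, and LYPD2, of the LY6 family, at 28.4, 36.3 and 25.3 CPM in Detroit 562 and 0.0237, 0 and 0 CPM in FaDu. Collagen gene COL1A2 (32.9, 26 and 12.7 CPM in Detroit 562) was lowest in replicate 3. DSEL, related to dermatan sulfate epimerase, and UBQLN2, which carries ubiquitinated proteins to the proteasome, were at 9.24, 11.3 and 13.9 CPM and 29.7, 25.9 and 29.2 CPM in Detroit 562 and at most 2 counts in a FaDu library. SCC-9 had means of 10.6 and 29.4 CPM in these genes. MAGED4 and MAGED4B gave the same values (15.8, 15.5 and 14.3 CPM against 0), as near-identical copies whose reads the counting could not separate.

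On the FaDu side MAGEA4, a cancer-testis antigen gene on the X chromosome, had the largest fold change, at 231, 210.3 and 220.1 CPM with 0 counts in Detroit 562, which is at least 2838-fold. PRAME, another antigen gene normally expressed in testis, was at 30.6, 39.1 and 39.2 CPM with 0 counts in Detroit 562 (at least 467-fold). MSN, the gene of moesin, which links actin to the cell membrane, was at 0.165, 0.136 and 0.269 CPM in Detroit 562 and 218, 261 and 228 CPM in FaDu. The near absence of MSN was on the side of Detroit 562, since SCC-9 had a mean of 413 CPM.

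PRSS21, a membrane-anchored serine protease of testis, was at 0.0943, 0 and 0 CPM in Detroit 562 and 105, 109 and 94.7 CPM in FaDu. ZNF331, a zinc finger gene (14.9, 17.5 and 16 CPM), LDOC1, a retrotransposon-derived gene of the X chromosome (12.1, 12.9 and 15.6 CPM), and NUDT12, a NADH diphosphatase (10.9, 10.8 and 9.3 CPM), had 0 counts in Detroit 562. TRIM17, a ubiquitin ligase, was also at 0 in Detroit 562 and varied more in FaDu, at 6.53, 15.4 and 10.00 CPM. PLIN2, which coats lipid droplets, was at 0.0471, 0.0272 and 0 CPM in Detroit 562 and 18.6, 22.2 and 19.98 CPM in FaDu. CCNA1, the germline A-type cyclin, was at 0.0707, 0 and 0 CPM in Detroit 562 and 24.2, 22.1 and 18.7 CPM in FaDu. The remaining genes of this side, C3orf14, TSPYL5, RSPO4, MLPH and SCML2, had means between 10.8 (RSPO4) and 16.5 CPM (MLPH) in FaDu and at most 1 count in a Detroit 562 library. Fitted fold changes of genes with 0 to 3 counts in one line depend on the prior count and are no measure of size.

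**Figure D1:**
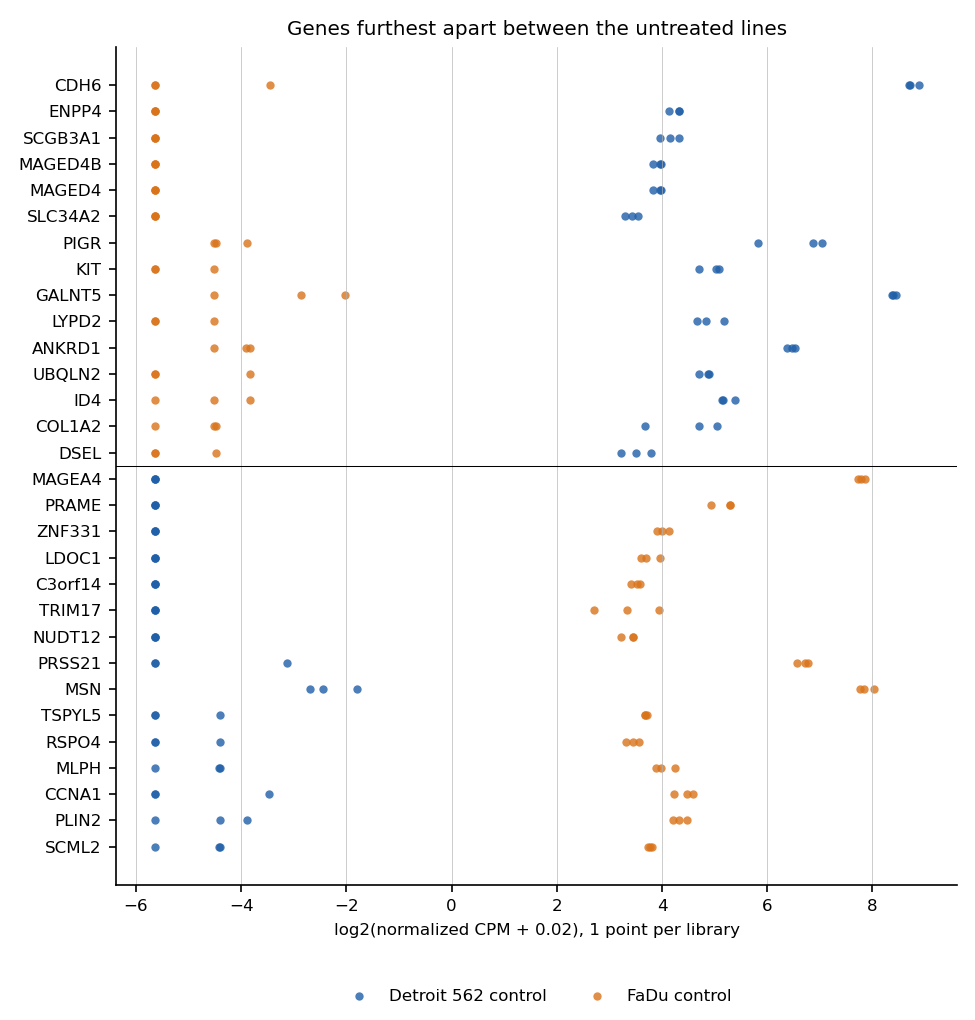
Log2 of normalized CPM plus 0.02 (x axis) in each untreated library (points, Detroit 562 blue, FaDu orange). The genes (y axis) are the 15 with the largest fitted log2 fold change in each direction, Detroit 562 side above the line. In each gene the 3 libraries of one line stand apart from the 3 of the other, and PIGR and COL1A2 are lowest in replicate 3 of Detroit 562.

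A wider count of genes seen in 1 line used raw counts alone. There were 53 genes with at least 100 counts in each Detroit 562 library and at most 3 in each FaDu library, and 52 with the reverse pattern. SCC-9 had at least 100 counts in all 3 untreated libraries in 17 of the 53 and 27 of the 52, and at most 3 in all of them in 15 and 12. A zinc finger symbol was taken as ZNF, ZFP, ZSCAN, ZKSCAN, ZIM or ZIK followed by a number. None of the 53 on the Detroit 562 side had one, whereas 14 of the 52 on the FaDu side did. Of these 14, 10 lie on chromosome 19. The zinc finger genes ZXDA and ZXDB, among the 53, fall outside this pattern of symbols. Such symbols made up 3.36% of all genes tested. Genes of the X chromosome, 3.52% of those tested, numbered 8 and 7, and genes with a same-strand overlap 4 and 9. On the Detroit 562 side the death receptor gene TNFRSF10A (10.9, 12.2 and 17.9 CPM with at most 3 counts in a FaDu library) and its decoy TNFRSF10D (16.8, 20.4 and 32.9 CPM) were members, named after their values were seen, as were the FaDu-side genes MATK, a kinase that regulates SRC (9.71, 10.3 and 9.3 CPM), and GPX3, a secreted glutathione peroxidase (6.36, 9.14 and 6.1 CPM).

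Lists of genes of known function, 41 in all, were then described by counts. A list's counts were read beside the shares of all tested genes past 4-fold, 8.25% for Detroit 562 and 5.5% for FaDu, as a description with no test of the list. Counts called at the study's thresholds (the wider rule) were read beside 31.2% of all tested genes for Detroit 562 and 29.8% for FaDu. A gene that passed the filter on low counts only through the line in which it is high had to differ, so the counts of lists with many untested members are no support for a direction. In 6 lists a gene had 0 counts in one line. With such genes at their bound, the median moved only for MHC class II presentation, from 3.50 to 2.58.

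Of 35 listed genes of mucosal secretion and defence, 20 were tested and these 20 were past 4-fold in Detroit 562. Log2 fold changes among them had a median of 5.04 and reached down to 2.5. The 15 others, among them lysozyme (LYZ), had too few counts to test, so the count is a description of the tested members and no support for a direction of the list. CEACAM6, a cell surface adhesion glycoprotein, was at 1416, 1713 and 2051 CPM in Detroit 562 and below 3 CPM in each FaDu library, and shares a strand region with another gene of its family. SLPI, an inhibitor of neutrophil elastase, was at 295, 376 and 293 CPM in Detroit 562 and 11.2, 7.53 and 10.6 CPM in FaDu. AGR2, which folds mucins in the endoplasmic reticulum, was at 259.6, 278 and 174 CPM in Detroit 562 and 2.28, 1.08 and 0.329 CPM in FaDu. In these 3 genes every Detroit 562 library lay above every FaDu library. MUC16, the membrane mucin known as CA125, was at 20.9, 22.7 and 22.8 CPM in Detroit 562 and 0.285, 0.402 and 0.164 CPM in FaDu. LCN2, which binds bacterial siderophores, was at 240.3, 254 and 154 CPM in Detroit 562 and 59.6, 10.2 and 21 CPM in FaDu, with a wide spread in FaDu.

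Of 27 tested keratin genes, 2 were past 4-fold in Detroit 562 and 4 in FaDu, with a median log2 fold change of 0.08. By the wider rule 13 and 9 were called, beside 31.2% and 29.8% of all genes. KRT4, the keratin of suprabasal mucosal cells, was at 3765, 3828 and 2322 CPM in Detroit 562 and 370.02, 240.2 and 60.4 CPM in FaDu (log2 fold change 3.89, SE 0.663, adjusted p = 5.4e-05). KRT14, the basal partner of K5, was at 1.01, 1.41 and 1.27 CPM in Detroit 562 and 345, 510.1 and 318 CPM in FaDu (-8.32, SE 0.377, adjusted p = 5.86e-12). KRT5 itself was at 2576, 2248 and 1490.2 CPM in Detroit 562 and 5972, 6521 and 3940.4 CPM in FaDu (log2 fold change -1.38). KRT14 was thus near 1 CPM in Detroit 562 in the presence of KRT5, while SCC-9 had a KRT14 mean of 2913 CPM. KRT17, a keratin of stress and of basal-like cells, was at 296, 282 and 150.4 CPM in Detroit 562 and 3485, 2929.9 and 2044 CPM in FaDu. KRT13, the usual partner of K4, was at 228, 205 and 103 CPM in Detroit 562 and 252, 289.9 and 68.6 CPM in FaDu, with overlapping libraries. KRT8, KRT18 and KRT19 were lowest in replicate 3 of both lines. KRT14, KRT16 and KRT17 are similar in sequence, and reads that fit more than 1 of them could be assigned with error.

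Cornified envelope and late differentiation genes were found on both sides. Of 34 listed, 26 were tested, 8 past 4-fold in Detroit 562 and 3 in FaDu, with a median log2 fold change of 0.09. SCEL, the envelope protein sciellin, was at 103, 108 and 138 CPM in Detroit 562 and 4.72, 4.5 and 4.91 CPM in FaDu, and SPRR1B, an envelope precursor, at 20.3, 24.9 and 32.3 CPM in Detroit 562 and 0.332, 0.502 and 0.516 CPM in FaDu. IVL, the precursor involucrin, was at 22, 21.8 and 12.8 CPM in Detroit 562 and 0.641, 0.226 and 0.117 CPM in FaDu. PPL and EVPL, which code for the envelope plakins, did not pass the test (393, 361 and 297 CPM in Detroit 562 and 469.9, 421 and 350.3 CPM in FaDu for PPL). FLG, the gene of filaggrin, had 0 counts in Detroit 562 and 0.95, 1.43 and 0.141 CPM in FaDu.

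Kallikrein-related peptidases are a cluster of serine proteases that cleave desmosomal proteins in shedding epithelium. Of 15 listed, 10 were tested, of which 7 were past 4-fold in FaDu and none in Detroit 562 (median log2 fold change -3.08). KLK5, which activates other members, was at 0.542, 0.733 and 0.592 CPM in Detroit 562 and 209.96, 222 and 224 CPM in FaDu (log2 fold change -8.45, SE 0.539, adjusted p = 3.75e-10). KLK6 was at 3.02, 2.66 and 2.29 CPM in Detroit 562 and 176, 319 and 175 CPM in FaDu. KLK10 was at 30.8, 32.5 and 34.7 CPM in Detroit 562 and 139.9, 150.3 and 129 CPM in FaDu. By the wider rule, KLK1 (0.589, 0.652 and 0.565 CPM in Detroit 562 and 0.19, 0.251 and 0.352 CPM in FaDu) and KLK11 (2.17, 2.88 and 2.53 CPM in Detroit 562 and 1.35, 1.46 and 1.08 CPM in FaDu) were called in Detroit 562, KLK1 not without replicate 1 of FaDu (log2 fold change 0.985) and KLK11 not without replicate 2 of Detroit 562 (0.857) or replicate 3 of FaDu (0.844). KLK7, which cleaves corneodesmosin, was below 1 CPM in every library of both lines and was not called.

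Junction genes were past 4-fold about as often as all genes. Of 38 tested genes of desmosomes, adherens and tight junctions, 3 were past 4-fold in Detroit 562 and 2 in FaDu, 13.2% in all beside 13.8% of all genes. DSG3, the desmosomal cadherin of basal squamous cells, was at 9.78, 7.58 and 3.07 CPM in Detroit 562 and 62.7, 75.8 and 55.7 CPM in FaDu, and PKP1, a desmosomal plaque protein, at 70.8, 59.2 and 37.8 CPM in Detroit 562 and 242, 239 and 202 CPM in FaDu. Both were higher in FaDu (log2 fold changes -3.24 and -2.02), and DSG3 was lowest in replicate 3 of both lines. TJP3, a tight junction scaffold, was at 60.03, 55.1 and 36.2 CPM in Detroit 562 and 8.29, 4.92 and 3.54 CPM in FaDu. CLDN11, a claudin, was at 222, 192 and 168 CPM in Detroit 562 and 0.427, 0.578 and 0.704 CPM in FaDu, with a same-strand overlap. DSG2 and JUP were not called (log2 fold changes -0.11 and -0.14).

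Genes of hemidesmosomes and the basement membrane were higher in Detroit 562 in nearly every case. Of 22 tested, 20 were called on this side (beside 31.2% of all genes), 7 of them past 4-fold, and 1 on the FaDu side, with a median log2 fold change of 1.35. LAMA3, the α3 chain of a laminin of the basement membrane, was at 263, 261 and 379.6 CPM in Detroit 562 and 36.5, 54.2 and 47.5 CPM in FaDu (log2 fold change 2.71, SE 0.239, adjusted p = 2.32e-08). ITGA6, the integrin chain that binds it, was at 595, 650.2 and 1019 CPM in Detroit 562 and 134, 153 and 173 CPM in FaDu. The libraries of the lines did not overlap in either gene. HSPG2, the gene of perlecan, was at 186, 147 and 141 CPM in Detroit 562 and 13.3, 16.2 and 9.01 CPM in FaDu. COL7A1, the collagen of anchoring fibrils, was not called (0.07). NID1, the linker nidogen-1, was the exception, at 0.424, 0.272 and 0.188 CPM in Detroit 562 and 5.25, 11.5 and 8.29 CPM in FaDu.

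Of 15 tested integrin genes outside the hemidesmosome, 2 were past 4-fold on each side. ITGA2, a chain of the collagen receptor, was at 185, 189.6 and 282 CPM in Detroit 562 and 16.9, 24 and 21 CPM in FaDu, and ITGB6, an epithelial integrin chain that activates TGF-β, at 78.3, 80.2 and 113 CPM in Detroit 562 and 15.2, 20.6 and 15.8 CPM in FaDu. ITGB7 and ITGA10 were past 4-fold in FaDu at low levels, with means of 3.26 and 1.36 CPM. Matrix metalloproteinases past 4-fold numbered 6 of 17 in Detroit 562 and none in FaDu. MMP10, stromelysin-2, was at 241, 189 and 169.8 CPM in Detroit 562 and 8.62, 9.02 and 4.15 CPM in FaDu. MMP13, collagenase-3, was at 166, 161 and 96.7 CPM in Detroit 562 and 29.3, 50.7 and 16.6 CPM in FaDu, and fell short of 4-fold without replicate 3 of FaDu (log2 fold change 1.82). MMP7, matrilysin, was at 50.7, 47.1 and 28.5 CPM in Detroit 562 and 3.49, 3.67 and 1.24 CPM in FaDu. MMP14, the membrane type 1 enzyme, was not called (269.6, 235 and 166 CPM in Detroit 562 and 176, 206 and 154 CPM in FaDu).

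The plasminogen system, serpins and TIMPs showed 6 of 19 past 4-fold, all in Detroit 562 (median log2 fold change 1.03, or 0.613 without genes that overlap another on the strand). TIMP2, an inhibitor of metalloproteinases, was at 234, 239 and 217 CPM in Detroit 562 and 5.32, 7.68 and 3.38 CPM in FaDu, with a same-strand overlap, and SERPINB5, the gene of maspin, at 328, 320.3 and 336 CPM in Detroit 562 and 42.8, 48.8 and 54.8 CPM in FaDu. PLAU, the gene of urokinase, was higher in FaDu (108, 113 and 117 CPM in Detroit 562 and 200.1, 228 and 209 CPM in FaDu, log2 fold change -0.91), while its receptor PLAUR was higher in Detroit 562 (9.19, 9.91 and 17.8 CPM in Detroit 562 and 3.18, 4.52 and 6.74 CPM in FaDu, log2 fold change 1.35). Of 22 tested mesenchymal and EMT genes, 5 were past 4-fold in Detroit 562 and 1 in FaDu. TGFBI, a secreted matrix protein induced by TGF-β, was at 789, 750.3 and 820.5 CPM in Detroit 562 and 35.8, 58.1 and 50.5 CPM in FaDu, LOX, the collagen crosslinking oxidase, at 26.8, 21.5 and 17.8 CPM in Detroit 562 and 0.76, 1.1 and 0.681 CPM in FaDu, and CDH2, the gene of N-cadherin, at 29.5, 32.4 and 35 CPM in Detroit 562 and 7.03, 6.55 and 8.31 CPM in FaDu. VIM, the gene of vimentin, was below 1 CPM in all 6 libraries (0.0943, 0.19 and 0.135 CPM in Detroit 562 and 0.261, 0.527 and 0.775 CPM in FaDu). SNAI2 and ZEB1, repressors of E-cadherin, were not called.

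Lineage transcription factors of squamous epithelium were partly shared. Of 24 tested, 7 were past 4-fold in Detroit 562, none in FaDu and 8 were not called. SOX2, a factor of basal and foregut epithelium, was at 72.7, 61.2 and 58.8 CPM in Detroit 562 and 7.41, 4.77 and 4.48 CPM in FaDu (log2 fold change 3.53, SE 0.167, adjusted p = 9.58e-12). EHF, an epithelial ETS factor, was at 678, 645 and 563 CPM in Detroit 562 and 19, 21.6 and 16.6 CPM in FaDu, and GRHL3, a factor of barrier formation, at 40.7, 34.8 and 21.4 CPM in Detroit 562 and 3.3, 2.13 and 1.71 CPM in FaDu. TBX1, a factor of the pharyngeal apparatus, was at 11.7, 9.97 and 10.9 CPM in Detroit 562 and 0.0712, 0.201 and 0.141 CPM in FaDu. PAX9, another pharyngeal factor, was not called, at 114, 104 and 105 CPM in Detroit 562 and 86.3, 94.2 and 71.5 CPM in FaDu. ZNF750, which acts in terminal differentiation, was on the FaDu side, at 3.58, 3.26 and 1.53 CPM in Detroit 562 and 11.8, 9.62 and 9.46 CPM in FaDu. FaDu thus had more TP63, and Detroit 562 more SOX2, EHF, GRHL3 and TBX1.

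Among glandular or foregut factors 11 of 20 were tested, with 1 past 4-fold in Detroit 562 and 3 in FaDu. SPDEF, an ETS factor of goblet cells, was at 45.6, 43.1 and 39.4 CPM in Detroit 562 and 0.0475, 0.126 and 0.0939 CPM in FaDu. GATA4, a factor of foregut endoderm and heart, had at most 2 counts in a Detroit 562 library and 13.3, 13 and 13.8 CPM in FaDu. SOX9 was at 1.15, 1.87 and 3.99 CPM in Detroit 562 and 9.97, 12.2 and 14.7 CPM in FaDu. NKX2-1, a thyroid and lung factor, was at 0.919, 0.679 and 0.404 CPM in Detroit 562 and 4.2, 4.7 and 2.77 CPM in FaDu. Of 38 HOX genes tested, 2 were past 4-fold in Detroit 562 and 7 in FaDu. HOXB13, a factor of posterior identity, was at 0.212, 0.0815 and 0.215 CPM in Detroit 562 and 7.98, 8.79 and 7.44 CPM in FaDu, and HOXB2 at 0.306, 0.353 and 0.404 CPM in Detroit 562 and 5.6, 3.82 and 3.85 CPM in FaDu. HOXA13, also posterior, was on the other side, at 4.24, 4.02 and 4.5 CPM in Detroit 562 and 0.427, 0.527 and 0.376 CPM in FaDu. HOXA7 and HOXA11 were not called. Many HOX genes overlap a neighbor on their strand, and these were named only by count.

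Receptor tyrosine kinases carry signals of growth factors, and Met is the receptor of HGF. MET was at 774, 769 and 837 CPM in Detroit 562 and 144, 139 and 161 CPM in FaDu (log2 fold change 2.42, SE 0.109, adjusted p = 5.57e-12). Of 42 tested kinases of this class, 10 were past 4-fold in Detroit 562 and 1 in FaDu, with a median log2 fold change of 0.33 (0.966 among genes with at least 50 counts in 3 libraries). EGFR, the EGF receptor gene, was not called (567, 548 and 550.4 CPM in Detroit 562 and 491, 569 and 563 CPM in FaDu, log2 fold change 0.04, SE 0.101). INSR, the insulin receptor gene, was at 12.1, 12.8 and 10.9 CPM in Detroit 562 and 2.71, 2.74 and 2.11 CPM in FaDu. MERTK, a receptor in the clearance of dying cells, was at 4.45, 4.67 and 5.3 CPM in Detroit 562 and 0.451, 0.301 and 0.446 CPM in FaDu, and ROR1, a WNT5A receptor, at 8.25, 9.91 and 14.7 CPM in Detroit 562 and 0.855, 0.552 and 1.64 CPM in FaDu. RET, the single member on the FaDu side, was below 1 CPM in each library. The ligand gene HGF was not tested, for too few counts in the series.

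Of 16 tested genes that activate HGF, inhibit its activation or bind Met, 3 were past 4-fold in Detroit 562. CD44, the hyaluronan receptor that acts as a co-receptor of Met, was at 3087, 3310.5 and 4818 CPM in Detroit 562 and 98.4, 157 and 232 CPM in FaDu, highest in replicate 3 of both lines. NRP1, a co-receptor of several ligands, was at 82.8, 87.7 and 82.9 CPM in Detroit 562 and 14.2, 16.8 and 20.7 CPM in FaDu. CBL, the ubiquitin ligase that degrades Met, was higher in FaDu, at 29.1, 27.6 and 30.5 CPM in Detroit 562 and 75.5, 92.2 and 90.1 CPM in FaDu (log2 fold change -1.56, SE 0.119, adjusted p = 3.61e-09), as was STAT3 (72.3, 75.3 and 67.6 CPM in Detroit 562 and 143, 157 and 144 CPM in FaDu). The adaptors GAB1 and GRB2 were not called (-0.06 and 0.15). ERK feedback genes past 4-fold numbered 6 of 22, all in Detroit 562. SPRY1, an inhibitor of receptor signaling, was at 7.19, 6.98 and 5.25 CPM in Detroit 562 and 0.237, 0.628 and 0.235 CPM in FaDu, and DUSP4, a MAP kinase phosphatase, at 24.2, 29.5 and 50.00 CPM in Detroit 562 and 4.65, 6.5 and 7.46 CPM in FaDu. DUSP6, a phosphatase specific to ERK, was on the other side (5.99, 5.43 and 5.65 CPM in Detroit 562 and 7.62, 9.12 and 11.1 CPM in FaDu, log2 fold change -0.70), and EGR1 was not called (450.4, 124 and 133 CPM in Detroit 562 and 254, 141 and 95 CPM in FaDu). Of 11 EGF receptor ligand genes, 1 was past 4-fold on each side. NRG1, a ligand of ERBB3, was at 113, 109 and 90.9 CPM in Detroit 562 and 23.8, 22.7 and 35.5 CPM in FaDu and AREG was not called (18.9, 23.4 and 33.8 CPM in Detroit 562 and 26, 33.6 and 34.4 CPM in FaDu).

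**Figure D2:**
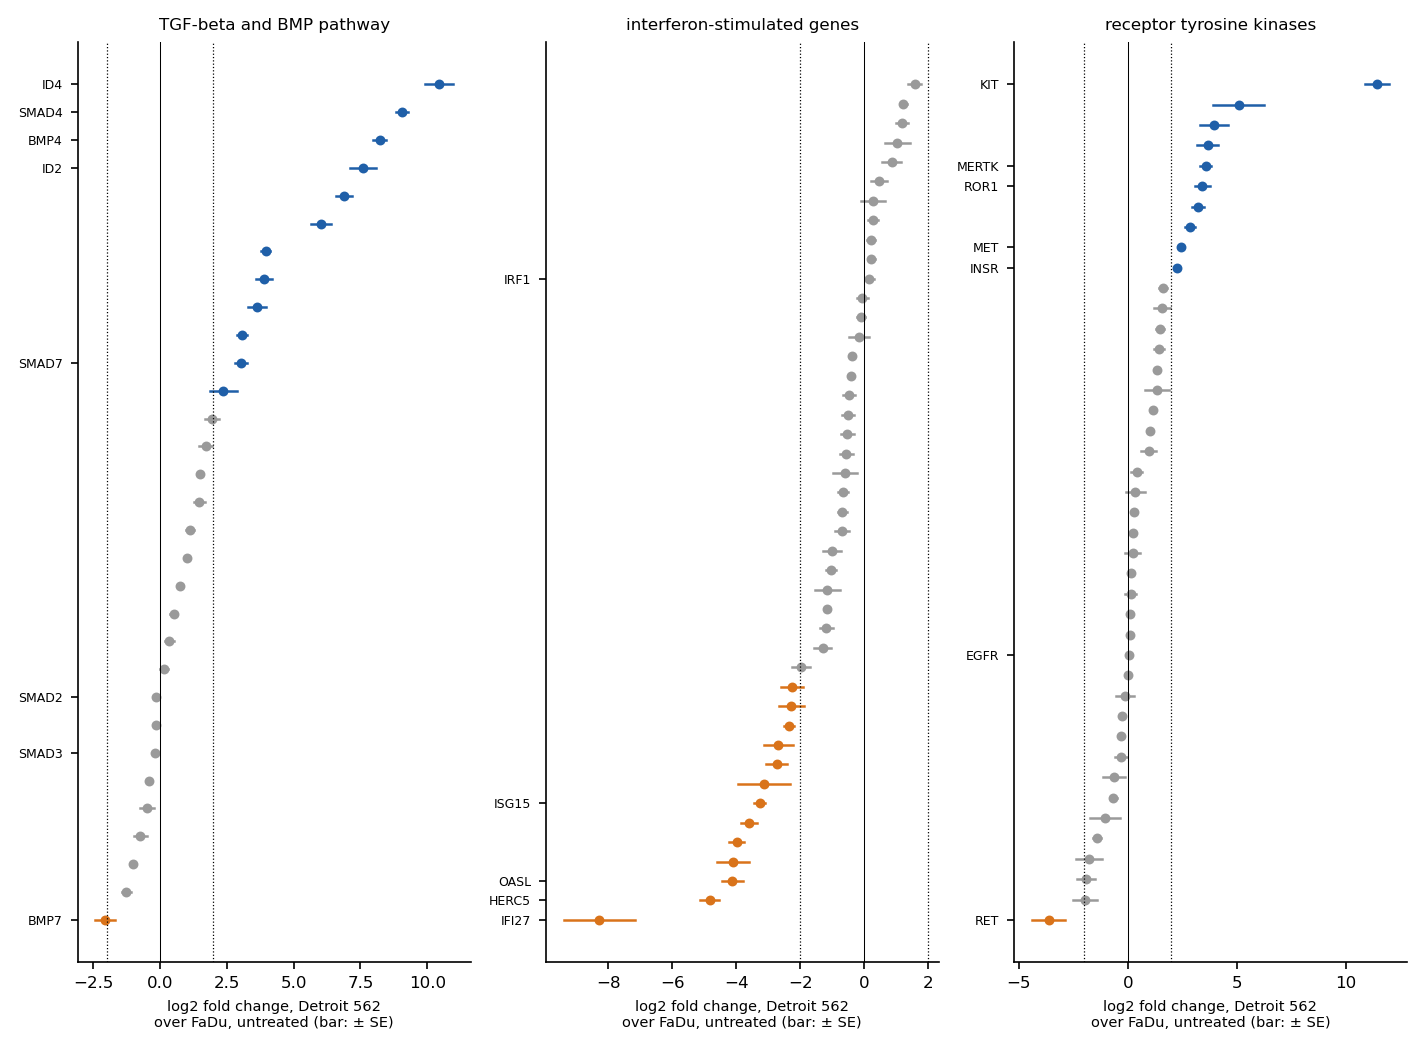
Log2 fold change, Detroit 562 over FaDu, untreated (x axis), for the tested members (y axis, labels mark those named in the text) of the TGF-β and BMP pathway, the interferon-stimulated genes and the receptor tyrosine kinases. Points and bars are the estimate ± SE, with 3 libraries a line and the spread estimated from all 18 libraries of the fit. Blue and orange mark genes past 4-fold in Detroit 562 and FaDu, and dotted lines a log2 fold change of 2. In the first panel 12 genes are blue and 1 is orange, in the second 13 are orange and in the third 10 are blue and 1 is orange.

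TGF-β and BMP ligands signal through receptor kinases to SMAD proteins, of which SMAD4 is the partner shared by both branches, and ID genes are classical BMP targets. SMAD4 was at 35.2, 33.5 and 38 CPM in Detroit 562 and 0, 0.0753 and 0.117 CPM in FaDu, close to 0 in each FaDu library, while SMAD3 was at 142, 144 and 156 CPM in Detroit 562 and 149, 183 and 167 CPM in FaDu and was not called. The 4 ID genes of the list were called in Detroit 562, 3 of them past 4-fold. ID4 was at 42, 35.9 and 35.1 CPM in Detroit 562 and 0, 0.0502 and 0.0235 CPM in FaDu and ID2 at 20.5, 17.6 and 19.5 CPM in Detroit 562 and 0.095, 0.0502 and 0.141 CPM in FaDu. The ligand gene BMP4 was at 57.6, 55.1 and 47.6 CPM in Detroit 562 and 0.19, 0.201 and 0.141 CPM in FaDu, and SMAD7, the inhibitory SMAD, at 6.79, 6.55 and 10.04 CPM in Detroit 562 and 1.19, 0.954 and 0.704 CPM in FaDu. In all, 12 of 31 tested genes of this pathway were past 4-fold in Detroit 562 and 1 in FaDu, with a median log2 fold change of 1.48. BMP7, the ligand gene on the FaDu side, was at 8.2, 6.84 and 3.34 CPM in Detroit 562 and 29.7, 25 and 21.9 CPM in FaDu and fell short of 4-fold without replicate 3 of Detroit 562 (log2 fold change -1.76) or replicate 1 of FaDu (-1.93). The link of SMAD4 to the other members was not tested.

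The genes beside SMAD4 on chromosome 18 (18q21) were examined in order. ME2, mitochondrial malic enzyme, was at 60.3, 66.1 and 75.8 CPM in Detroit 562 and 0.0237, 0.1 and 0.141 CPM in FaDu. ELAC1, a tRNA processing enzyme, was at 8.79, 9.37 and 7.57 CPM in Detroit 562 and 0, 0 and 0.0235 CPM in FaDu. The ELAC1 gene (50967991 to 50988121) overlaps the gene RP11-729L2.2 (50968019 to 51058144) on its strand. MEX3C, an RNA-binding ubiquitin ligase on the distal side of SMAD4, was at 32, 29.1 and 31.8 CPM in Detroit 562 and 0.0237, 0.0502 and 0.0235 CPM in FaDu. ME2, ELAC1, SMAD4 and MEX3C lie from 50878734 to 51218304 of chromosome 18 (GRCh38). FaDu was near 0 in these 4 genes, and SCC-9 had means from 8.44 (ELAC1) to 74.2 CPM (MEX3C). SMAD2, on the centromeric side, was at 48.3, 47.4 and 49.2 CPM in Detroit 562 and 52.9, 55.3 and 51.5 CPM in FaDu and MBD2, distal, at 80.4, 78.3 and 78.4 CPM in Detroit 562 and 58.2, 53.1 and 59.97 CPM in FaDu. Of 21 tested genes of this list, 10 were past 4-fold in Detroit 562, SMAD4 itself included, and none in FaDu. Gene copies were not measured.

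The Notch pathway had members on both sides, 3 of 23 past 4-fold in Detroit 562 and 4 in FaDu. NOTCH1, the main receptor of squamous epithelium, was at 55.8, 49.7 and 44.9 CPM in Detroit 562 and 282, 241 and 206 CPM in FaDu (log2 fold change -2.28, SE 0.149, adjusted p = 5.18e-10). NRARP, a Notch target that limits signaling, was at 15.3, 12.2 and 8.99 CPM in Detroit 562 and 185, 135 and 115 CPM in FaDu, and MFNG, a glycosyltransferase that modifies Notch, at 0.448, 0.272 and 0.565 CPM in Detroit 562 and 16.7, 24 and 29 CPM in FaDu. MAML2, a coactivator of Notch, was at 84.5, 76.5 and 76.7 CPM in Detroit 562 and 4.01, 3.26 and 3.31 CPM in FaDu, and HEY1, a target, at 3.06, 2.55 and 2.29 CPM in Detroit 562 and 0.332, 0.377 and 0.141 CPM in FaDu. HES1, the best known target, was not called (57.6, 45.3 and 37.3 CPM in Detroit 562 and 59.2, 49.9 and 39.6 CPM in FaDu). The receptor, NRARP and MFNG thus stood on the FaDu side, and HEY1 and MAML2 on that of Detroit 562.

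In the WNT pathway 7 of 38 genes were past 4-fold in Detroit 562 and 2 in FaDu. WNT5A, a ligand of the β-catenin-independent branch, was at 84.7, 84.5 and 37.6 CPM in Detroit 562 and 0.784, 1.48 and 0.939 CPM in FaDu, and WNT3A, of the β-catenin branch, at 8.65, 7.22 and 4.71 CPM in Detroit 562 and 0.427, 0.276 and 0.188 CPM in FaDu. FZD1, a receptor, was at 118, 117 and 96.4 CPM in Detroit 562 and 15.7, 11.9 and 12.1 CPM in FaDu, and LGR4, an R-spondin receptor, at 68.4, 63.6 and 62 CPM in Detroit 562 and 10.5, 12 and 10.3 CPM in FaDu. AXIN2, a feedback gene of β-catenin with a same-strand overlap, was at 3.63, 4.02 and 1.86 CPM in Detroit 562 and 0.214, 0.326 and 0.0235 CPM in FaDu. ZNRF3, another feedback gene, was not called (0.13).

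Of 44 interferon-stimulated genes tested, 13 were past 4-fold in FaDu and none in Detroit 562. By the wider rule 28 were called in FaDu and 5 in Detroit 562, beside 29.8% and 31.2% of all genes (median log2 fold change -0.68, or -1.02 without overlapping genes). OASL, related to the antiviral 2'-5' oligoadenylate synthetases, was at 6.13, 6.27 and 5.95 CPM in Detroit 562 and 80.8, 74.9 and 166 CPM in FaDu. HERC5, the ligase that attaches ISG15, was at 1.63, 1.44 and 1.75 CPM in Detroit 562 and 36.5, 30.3 and 70.8 CPM in FaDu, and ISG15 itself at 12.7, 11.5 and 9.32 CPM in Detroit 562 and 92.6, 91.4 and 139 CPM in FaDu. IFI27 was at 0.471, 0.761 and 0.485 CPM in Detroit 562 and 84.3, 43.5 and 406 CPM in FaDu. In OASL, HERC5, ISG15 and IFI27 alike the third FaDu library was the highest. Without that library the count past 4-fold in FaDu was 11 (11 to 14 over the alternatives tried). IRF1, a transcription factor of the response, was not called (log2 fold change 0.16).

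Antigen presentation genes were counted by class. None of 19 genes of MHC class I presentation was past 4-fold in either direction. B2M, the light chain, was at 863, 886 and 803 CPM in Detroit 562 and 578, 574 and 603 CPM in FaDu. Reads of HLA genes map according to haplotype, so their levels are uncertain between the lines. Of 14 listed class II genes 10 were tested and 6 were past 4-fold in Detroit 562. CIITA, the class II transactivator, was at 3.82, 3.01 and 1.29 CPM in Detroit 562 and 0.166, 0.126 and 0.117 CPM in FaDu, CD74, the invariant chain, at 8.79, 9.15 and 6.68 CPM in Detroit 562 and 0.19, 0.452 and 0.657 CPM in FaDu, and HLA-DRA at 4.08, 4.59 and 2.72 CPM in Detroit 562 and 0.142, 0.0753 and 0.0939 CPM in FaDu. All 3 were below 15 CPM, while CTSS, a protease of this pathway, was not called (11.1, 11.9 and 10.3 CPM in Detroit 562 and 11.2, 10.7 and 5.63 CPM in FaDu).

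Cytokine genes were divided between the lines. Of 27 tested interleukin and colony-stimulating factor genes, 2 were past 4-fold in Detroit 562 and 5 in FaDu. IL1B and IL1A, the inflammatory IL-1 ligands, were at 0.189, 0.244 and 0.162 CPM in Detroit 562 and 38.4, 61 and 46.4 CPM in FaDu and 0.825, 1.22 and 0.916 CPM in Detroit 562 and 27.4, 41.2 and 38.3 CPM in FaDu. IL1R1, their receptor gene, was at 60.2, 55.4 and 34.3 CPM in Detroit 562 and 0.855, 0.552 and 0.469 CPM in FaDu, so that ligands and receptor were on opposite sides. IL6ST, the gp130 co-receptor of the IL-6 family, was at 115, 114 and 141 CPM in Detroit 562 and 27.1, 27.6 and 28.5 CPM in FaDu. IL18 was not called (33.8, 29.9 and 36 CPM in Detroit 562 and 35.1, 38.8 and 30.4 CPM in FaDu). Of 16 tested chemokine genes, 6 were past 4-fold in Detroit 562 and 2 in FaDu. CXCL16 was at 162, 165 and 149 CPM in Detroit 562 and 36, 28 and 26.1 CPM in FaDu, CXCL1, which draws neutrophils, at 66.4, 54.2 and 38.1 CPM in Detroit 562 and 8.1, 8.61 and 4.67 CPM in FaDu, and CCL5, which draws T cells, at 0.0943, 0.0815 and 0.108 CPM in Detroit 562 and 2.52, 1.31 and 3.54 CPM in FaDu.

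Among 14 tested immune checkpoint ligand genes, 5 were past 4-fold in Detroit 562 and none in FaDu. VTCN1, the gene of B7-H4, was at 25.3, 24 and 14.2 CPM in Detroit 562 and 0.095, 0.201 and 0.0235 CPM in FaDu, and NT5E, the ectonucleotidase CD73, at 44.5, 53.6 and 102 CPM in Detroit 562 and 5.91, 4.42 and 20.1 CPM in FaDu. CD274, the gene of PD-L1, was at 10.4, 10.2 and 20.03 CPM in Detroit 562 and 6.93, 9.49 and 10.8 CPM in FaDu and was not called. Of 15 tested S100 genes 4 were past 4-fold in Detroit 562. S100A9, a subunit of calprotectin, was at 92, 133 and 63 CPM in Detroit 562 and 3.47, 3.26 and 1.24 CPM in FaDu, its partner S100A8 at 5.07, 7.66 and 4.25 CPM in Detroit 562 and 0.356, 0.251 and 0.164 CPM in FaDu, and S100A2, of basal cells, at 653, 707 and 649.7 CPM in Detroit 562 and 806, 930.1 and 1196 CPM in FaDu. Of 21 tested cancer-testis genes of 41 listed, 3 were past 4-fold in Detroit 562 and 2, MAGEA4 and PRAME, in FaDu. The germ cell gene DAZL, one of the former 3, was at 2.12, 2.23 and 1.53 CPM in Detroit 562 and 0, 0.0502 and 0 CPM in FaDu.

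Enzymes of detoxification were counted by family. NRF2 targets and aldo-keto reductases had 7 of 29 past 4-fold in Detroit 562 and 1 in FaDu. By the wider rule 15 were called in Detroit 562, 7 in FaDu and 7 in neither, where 31.2% and 29.8% of all genes were called in Detroit 562 and FaDu. AKR1B10, a retinal reductase, was at 141, 124 and 32 CPM in Detroit 562 and 6.36, 5.75 and 1.95 CPM in FaDu, lowest in replicate 3 of both lines. AKR1C2, which reduces steroids, was at 254, 288 and 103 CPM in Detroit 562 and 27.9, 25.1 and 10.3 CPM in FaDu. AKR1C3, of the same function, was at 122, 130.3 and 51.9 CPM in Detroit 562 and 9.97, 10.2 and 3.71 CPM in FaDu. Their sequences are similar, so a read that fits both may have been counted at each. NQO1, a quinone reductase, was higher in FaDu (435, 449 and 318 CPM in Detroit 562 and 768, 748 and 609.6 CPM in FaDu, log2 fold change -0.82), and so was GCLM, of glutathione synthesis (40.2, 38.7 and 32.7 CPM in Detroit 562 and 172, 146 and 138 CPM in FaDu). The gene of NRF2 itself, NFE2L2, was not called (0.31). Without the third FaDu library the counts were 5 and 2.

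Alcohol and aldehyde dehydrogenases showed 6 of 22 past 4-fold in Detroit 562 and 1 in FaDu, with 10 and 5 called and 7 not called. Numbers called here and in the families below stand beside 31.2% and 29.8% of all genes called in Detroit 562 and FaDu. ALDH7A1, of lysine breakdown, was at 90.01, 80.9 and 57.8 CPM in Detroit 562 and 0.19, 0.276 and 0.141 CPM in FaDu. ALDH1A1, a retinal dehydrogenase, was at 44.9, 40.2 and 19.7 CPM in Detroit 562 and 1.42, 0.527 and 0.235 CPM in FaDu, while ALDH1A3, of the same function, was not called (1069, 1083 and 1073 CPM in Detroit 562 and 1004, 917 and 908 CPM in FaDu). ADH1B and ADH1C, with overlapping loci, were at 59.7, 50.6 and 16.2 CPM in Detroit 562 and 2.09, 2.13 and 0.822 CPM in FaDu and 55.3, 46.4 and 15.2 CPM in Detroit 562 and 1.99, 1.93 and 0.775 CPM in FaDu. ALDH1B1, a mitochondrial enzyme, was on the FaDu side (14.1, 14.3 and 14.5 CPM in Detroit 562 and 74, 63.1 and 73.4 CPM in FaDu). Of 27 cytochrome P450 genes, 8 were past 4-fold in Detroit 562 and none in FaDu, with 16 and 3 called. CYP24A1, which degrades active vitamin D, was at 225, 212 and 177 CPM in Detroit 562 and 6.62, 9.39 and 3.85 CPM in FaDu, and CYP1B1, an oxidase of hydrocarbons, at 33.2, 35.8 and 28.2 CPM in Detroit 562 and 5.15, 3.24 and 3.03 CPM in FaDu. Of 21 glutathione transferase and UGT genes 3 were past 4-fold in Detroit 562, with 9 called there, 3 in FaDu and 9 in neither. GSTA4 was at 9.85, 8.8 and 5.04 CPM in Detroit 562 and 0.427, 0.377 and 0.305 CPM in FaDu, and GSTP1, the pi-class transferase, was higher in FaDu (1468, 1388 and 1181 CPM in Detroit 562 and 2368, 2498 and 2332 CPM in FaDu, log2 fold change -0.83).

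Genes of growth and energy metabolism were seldom past 4-fold. Of 28 tested genes of glycolysis and lactate export none was past 4-fold, and 16 were not called. LDHA, lactate dehydrogenase A, was at 761, 804 and 963 CPM in Detroit 562 and 837, 855 and 933 CPM in FaDu. HK2, hexokinase 2, was at 44.2, 50.2 and 64.5 CPM in Detroit 562 and 52.1, 72.2 and 67.3 CPM in FaDu and was not called. SLC16A1, the lactate transporter MCT1, was higher in FaDu, at 55.8, 59.1 and 85.8 CPM in Detroit 562 and 232, 249.6 and 264 CPM in FaDu (log2 fold change -1.89, SE 0.136, adjusted p = 1.76e-09). None of 30 proliferation and mitosis genes was past 4-fold, with a median log2 fold change of -0.05, and MKI67, the Ki-67 gene, was at 411, 364 and 382 CPM in Detroit 562 and 386, 408 and 428 CPM in FaDu. Of 32 cholesterol and fatty acid synthesis genes, 1 was past 4-fold, TM7SF2, a sterol reductase (30.2, 28.1 and 19.4 CPM in Detroit 562 and 4.56, 3.94 and 3 CPM in FaDu).

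Cell cycle control genes past 4-fold numbered 1 of 26. CCND2, cyclin D2, was at 0.448, 0.272 and 0.188 CPM in Detroit 562 and 8.03, 11.1 and 14 CPM in FaDu, while CCND1, cyclin D1, was at 942, 1081 and 1238 CPM in Detroit 562 and 849, 754 and 899 CPM in FaDu and was not called. MYC was higher in FaDu, at 85.3, 101 and 105 CPM in Detroit 562 and 207, 210.2 and 187 CPM in FaDu (log2 fold change -1.05, SE 0.092). CDKN2A, the p16 gene, was at 18.1, 18.7 and 15.6 CPM in Detroit 562 and 20.2, 20.4 and 17 CPM in FaDu. Of 18 BCL2 family genes 4 were past 4-fold in Detroit 562. BMF, a BH3-only protein, was at 24.1, 20.9 and 16.6 CPM in Detroit 562 and 0.285, 0.452 and 0.0939 CPM in FaDu, BID at 161, 169 and 137 CPM in Detroit 562 and 38.1, 33.6 and 30.05 CPM in FaDu, and BCL2 itself at 5.49, 5.76 and 5.6 CPM in Detroit 562 and 1.4, 1.03 and 1.29 CPM in FaDu. MCL1 was not called (0.11).

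Genes of chromosome arms often altered in these tumors were described by place. Of 13 tested genes of 11q13, CCND1 included, 1 was past 4-fold in Detroit 562 and 3 in FaDu, and 9 were called in FaDu (29.8% of all genes). PPFIA1, a focal adhesion scaffold, was at 272, 292 and 349 CPM in Detroit 562 and 1307, 1344 and 1376 CPM in FaDu, and FADD, a death receptor adaptor, at 148, 151 and 149.8 CPM in Detroit 562 and 271, 256 and 267 CPM in FaDu. Of 11 tested genes of 7q31 around MET, 10 were called in Detroit 562 (31.2% of all genes), 5 past 4-fold, and MET itself is counted in each of these numbers. TES, a focal adhesion protein, was at 291, 276 and 296 CPM in Detroit 562 and 51.6, 49.4 and 50.6 CPM in FaDu, CAV1, the caveolae protein, at 3134, 2794 and 2719.5 CPM in Detroit 562 and 1075, 939.8 and 1159 CPM in FaDu, and CAPZA2, which caps actin, at 159.5, 155 and 169 CPM in Detroit 562 and 80.1, 73.4 and 75.3 CPM in FaDu. Of 15 tested genes of 9p21, 3 were past 4-fold in Detroit 562 and 2 in FaDu, and MTAP, the neighbor of CDKN2A, was not called (78.5, 80.3 and 97.7 CPM in Detroit 562 and 60.2, 69.4 and 72.8 CPM in FaDu).

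Along the genome, 31 neighboring tested genes were taken as a window. Of 14743 windows, 609 had a median log2 fold change of at least 1 and 420 of at most -1, 6.98% in all, and joined windows gave 40 regions. Regions were chosen by these fold changes, so the direction of the counts inside a region follows from the choice and is no support for it. The strongest on the Detroit 562 side was on chromosome 11 from 27654893 to 45883248 (GRCh38), with 26 of 60 genes past 4-fold in Detroit 562 and 4 in FaDu and a most extreme window median of 2.53. A second, from 71453109 to 108467531 of chromosome 11, held 163 genes, with 43 past 4-fold in Detroit 562 and 5 in FaDu. The region around MET, from 105605067 to 128343908 of chromosome 7, had 16 of 64 genes past 4-fold in Detroit 562 and 1 in FaDu. That around SMAD4, from 46803224 to 69849087 of chromosome 18, had 21 of 70 and none. Chromosome 11 as a whole had 134 of 875 genes past 4-fold in Detroit 562 and 33 in FaDu, and chromosome 19 had 50 of 1149 and 117.

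**Figure D3:**
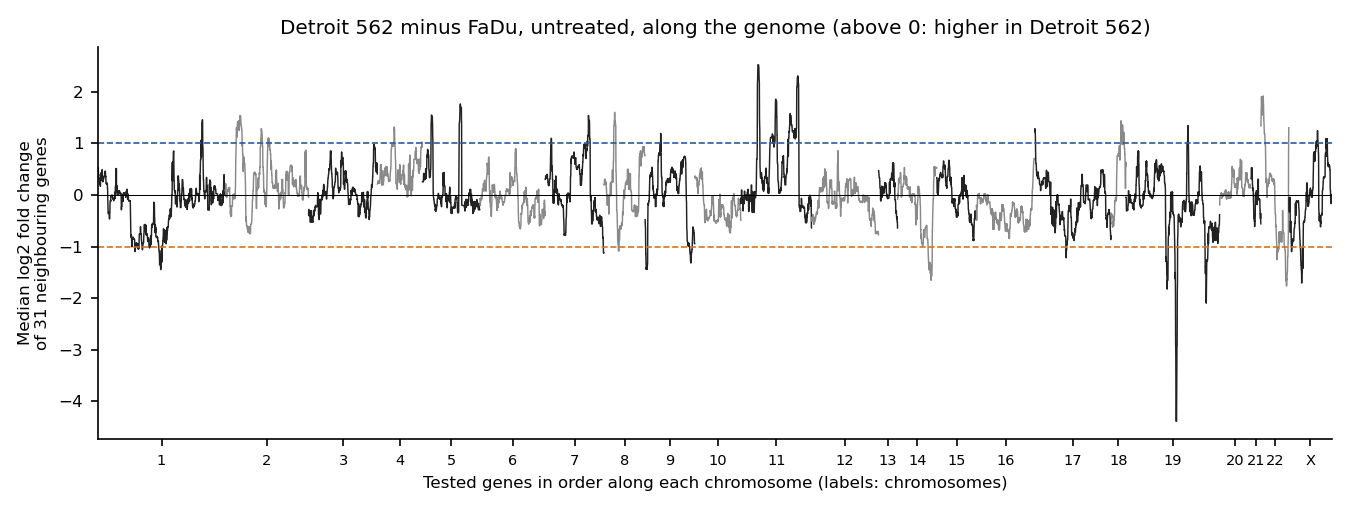
Median log2 fold change, Detroit 562 minus FaDu, of 31 neighboring tested genes (y axis) in order along each chromosome (x axis), untreated; dashed lines mark 1 and -1. The lowest stretch is on chromosome 19, at -4.39, and the highest on chromosome 11, at 2.53.

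On the FaDu side the 2 strongest regions were both on chromosome 19. The first ran from 35754569 to 38773492, with 26 of 64 genes past 4-fold in FaDu, none in Detroit 562 and a most extreme window median of -4.39. The second ran from 49877425 to 52897693, with 22 of 64 past 4-fold in FaDu and none in Detroit 562. Both hold clusters of KRAB-type zinc finger genes, a family of DNA-binding proteins many of which silence transposable elements. Genes with a zinc finger symbol (ZNF, ZFP and the like) were therefore counted, a set chosen after values were seen and given with no test. Of 520 tested, 9 were past 4-fold in Detroit 562 (1.73%) and 78 in FaDu (15%). On chromosome 19 the counts were 3 and 56 of 241, and on the other chromosomes 6 and 22 of 279 (7.89% in FaDu). Without genes that overlap another on the strand, 8 and 62 of 413 were past 4-fold.

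Within the first region 28 zinc finger genes were tested. None was called in Detroit 562, 26 were called in FaDu and 20 of them were past 4-fold. This region was picked for its low median fold change, so these counts describe it and are no support for a direction. A mean below 1 CPM was found for 21 of the 28 in Detroit 562, for 4 in FaDu and for 2 in SCC-9. ZNF569, at 0.0236, 0.0815 and 0.0269 CPM in Detroit 562 and 3.85, 2.91 and 3.8 CPM in FaDu, was near 0 in each Detroit 562 library, with an SCC-9 mean of 5.87 CPM. ZNF529 was at 0.0707, 0.0272 and 0 CPM in Detroit 562 and 3.56, 4.67 and 5.14 CPM in FaDu. ZNF527, between genes of this kind, was at 2.59, 2.77 and 3.02 CPM in Detroit 562 and 2.66, 2.84 and 2.79 CPM in FaDu and was not called. ZNF146 was at 89.5, 91.2 and 106 CPM in Detroit 562 and 169, 148 and 194 CPM in FaDu and was called in FaDu but not past 4-fold.

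**Figure D4:**
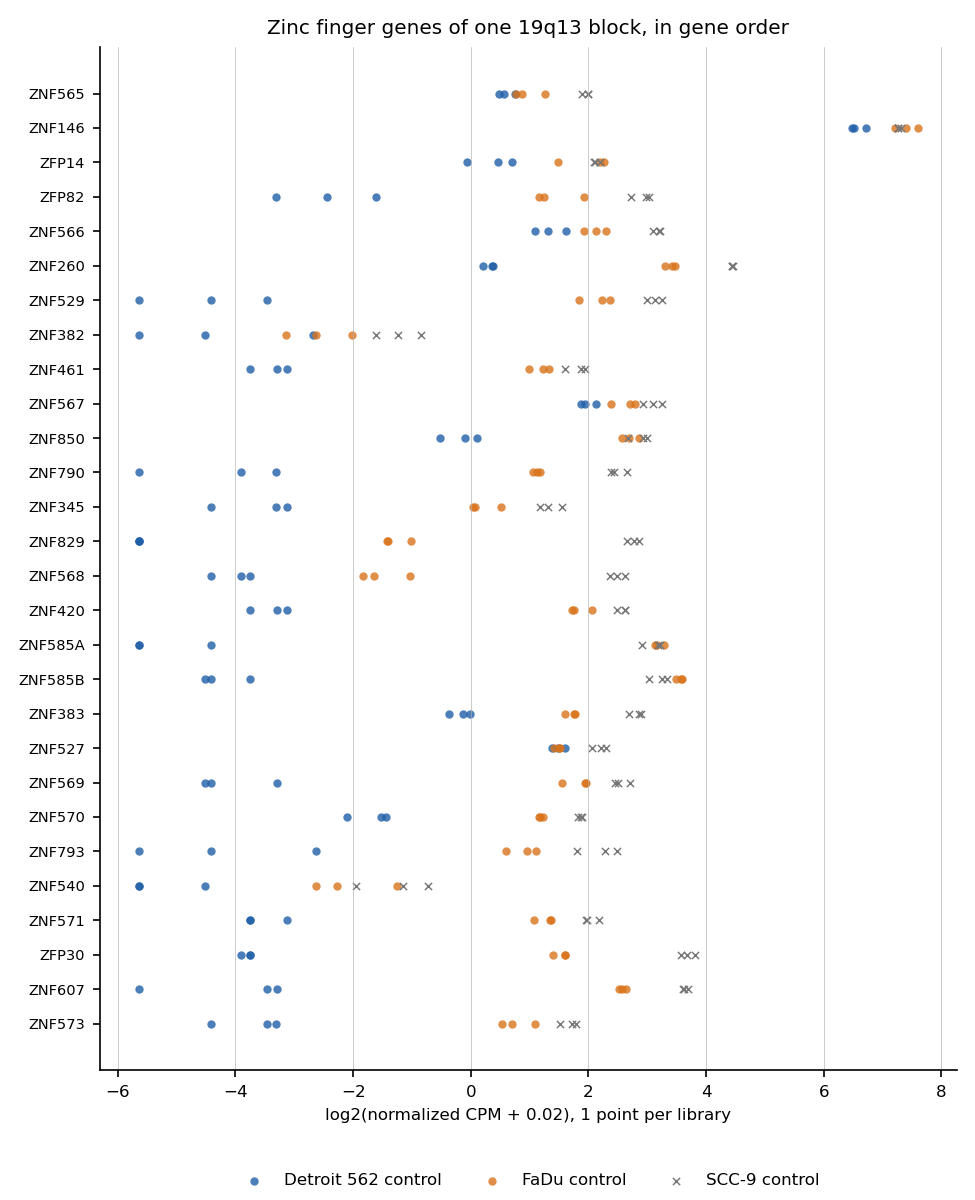
Log2 of normalized CPM plus 0.02 (x axis) in each untreated library of Detroit 562 (blue), FaDu (orange) and SCC-9 (grey crosses) for 28 zinc finger genes of the first chromosome 19 region (y axis, in gene order). For 21 genes the Detroit 562 mean is below 1 CPM, while ZNF527 and ZNF146 are expressed in the 3 lines.

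Of the 14 zinc finger genes seen in FaDu with at most 3 counts in each Detroit 562 library, all 14 had a promoter in the RefSeq table (GRCh38.p14, 250 bases before the start and 50 after it). These held 9 to 34 CG dinucleotides in 300 bases, with a median of 23, where the start with the most CG was taken. Over the 27305 genes of the table, with the start chosen in the same way, the median was 16. That set was not limited to genes tested here or to zinc finger genes, so the medians do not compare like sets and no conclusion is drawn. CG, the site of DNA methylation, is the same on both strands and was the only motif searched. Methylation was not measured. The promoters of 3 of these genes, which were detected in FaDu and SCC-9 and near 0 in Detroit 562, are given as examples. Others of the 14 had the same pattern, and the 3 shown each hold fewer CG than the median of 23. Those of ID4 and PIGR, which are on the Detroit 562 side, stand beside them. CG is in capitals, and each sequence runs 5′ to 3′ on the strand of its gene.
ZNF569: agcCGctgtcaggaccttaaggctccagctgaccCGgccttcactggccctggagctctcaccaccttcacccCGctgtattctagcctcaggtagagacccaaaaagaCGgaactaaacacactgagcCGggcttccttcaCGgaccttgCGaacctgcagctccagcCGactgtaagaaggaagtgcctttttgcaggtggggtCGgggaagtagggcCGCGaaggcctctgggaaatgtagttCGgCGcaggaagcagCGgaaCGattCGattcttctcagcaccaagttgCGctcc
ZNF350: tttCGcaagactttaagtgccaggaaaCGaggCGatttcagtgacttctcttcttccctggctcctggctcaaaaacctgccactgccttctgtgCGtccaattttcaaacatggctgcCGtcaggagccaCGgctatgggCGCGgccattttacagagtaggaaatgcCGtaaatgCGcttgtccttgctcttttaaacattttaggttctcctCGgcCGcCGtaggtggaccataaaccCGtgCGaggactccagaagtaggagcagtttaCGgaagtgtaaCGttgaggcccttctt
ZNF615: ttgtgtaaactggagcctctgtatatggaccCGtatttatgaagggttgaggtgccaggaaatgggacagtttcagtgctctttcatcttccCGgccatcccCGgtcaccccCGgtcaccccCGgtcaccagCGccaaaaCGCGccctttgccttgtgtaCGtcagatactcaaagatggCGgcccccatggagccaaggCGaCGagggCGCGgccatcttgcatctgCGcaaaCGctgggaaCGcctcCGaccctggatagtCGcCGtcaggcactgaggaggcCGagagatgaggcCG
ID4: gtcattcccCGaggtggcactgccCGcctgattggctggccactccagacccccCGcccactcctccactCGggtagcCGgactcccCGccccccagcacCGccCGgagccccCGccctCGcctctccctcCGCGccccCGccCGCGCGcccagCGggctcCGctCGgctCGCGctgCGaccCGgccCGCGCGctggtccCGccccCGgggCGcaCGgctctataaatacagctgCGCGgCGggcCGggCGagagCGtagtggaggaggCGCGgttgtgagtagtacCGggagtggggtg
PIGR: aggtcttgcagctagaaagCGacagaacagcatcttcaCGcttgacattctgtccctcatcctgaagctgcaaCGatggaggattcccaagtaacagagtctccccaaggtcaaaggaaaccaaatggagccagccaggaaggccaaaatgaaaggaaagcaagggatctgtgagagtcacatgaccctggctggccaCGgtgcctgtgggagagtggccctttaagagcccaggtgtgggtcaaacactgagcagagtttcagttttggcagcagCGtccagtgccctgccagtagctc
The first lies at chr19:37467395-37467694 (minus strand) and holds 17 CG, a number that 46% of all promoters reach. That of ZNF350, at chr19:51986791-51987090 (minus), holds 17 (46%), and that of ZNF615, at chr19:52008162-52008461 (minus), 22 (37.7%). The ID4 promoter, at chr6:19837120-19837419 (plus), holds 39 (8.71%) and the PIGR promoter, at chr1:206946417-206946716 (minus), 5 (70.4%). ZNF350 was at 0, 0 and 0.0269 CPM in Detroit 562 and 6.13, 5.55 and 5.33 CPM in FaDu and ZNF615 at 0 CPM in each library in Detroit 562 and 6.15, 5.7 and 3.94 CPM in FaDu, both in the second region of chromosome 19. The promoters shown held from 5 (PIGR) to 39 CG (ID4), and no conclusion is drawn from these examples.

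The same lines were compared in the HGF-treated libraries, within the same fit, so that the filter and the estimate of the spread were shared with the untreated comparison. There 2084 genes were past 4-fold, 13.5% of those tested, 1167 in Detroit 562 and 917 in FaDu. Of the 2128 of the untreated comparison, 1810 were past 4-fold there in the same direction and none in the opposite one. Of the remaining 318, 314 kept their sign. In several FaDu-side genes the third HGF-treated Detroit 562 library lay above the first and second. MAGEA4 was at 0.0247, 0.0284 and 0.639 CPM and MSN at 0.099, 0.227 and 1.06 CPM in HGF-treated Detroit 562, while TSPYL5 was at 0 in each. The cause of these low values was not tested. Of the zinc finger genes, 84 were past 4-fold in FaDu and 12 in Detroit 562, and of the mucosal genes 17 of 20 in Detroit 562. The difference of the comparisons passed an adjusted p of 0.1 for 37 genes (0.239% of those tested; 1788 at an unadjusted p below 0.05), 18 of them among the 2128. INSR had a log2 fold change of 2.25 in the untreated and 1.13 in the HGF-treated libraries (adjusted p of the difference 0.0297), and Detroit 562 was at 5.05, 5.37 and 5.29 CPM with HGF. MMP1, interstitial collagenase, was at 153, 136 and 275 CPM in Detroit 562 and 11.8, 18.2 and 10.6 CPM in FaDu untreated and at 1006, 842 and 2391 CPM with HGF in Detroit 562, with log2 fold changes of 3.79 and 6.10 (adjusted p 0.0893). CLIC5, a chloride channel family protein named after its values were seen, was at 5.49, 5.41 and 6.03 CPM in Detroit 562 and 0.0237, 0.0753 and 0.0704 CPM in FaDu untreated and at 1.34, 1.85 and 1.89 CPM with HGF in Detroit 562 (log2 fold changes 6.57 and 3.68, adjusted p 0.0661). The number of such genes rested on single libraries. It was 4 without the first untreated Detroit 562 library, 5 without the second, 450 without the third, and 13 and 21 without the first and second of FaDu.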

How the data were processed

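RNA was measured in 18 libraries, 3 untreated and 3 HGF-treated of each of 3 cell lines, made from poly(A) RNA with a stranded kit. According to the methods of the study, the authors trimmed reads with cutadapt, aligned them with STAR 2.5.2b to GRCh38.p12 and counted reads by strand over GENCODE annotations with bedtools. The deposited values are these raw counts, without normalization. Per the file headers each row is a gene feature with its start and end, so reads in introns and in overlapping genes may be included, which is not stated. The table lists protein-coding genes, and 0 columns were left unused. The sample labels give 16 h of HGF, and another text of the series a longer time.

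The counts were filtered with filterByExpr, normalized with TMM and tested by the quasi-likelihood test of edgeR 4.0.16 (R 4.3.3), and p values were adjusted over the whole table by the Benjamini-Hochberg method. All 18 libraries entered 1 fit with a mean for each line and treatment, and the contrast was untreated Detroit 562 minus untreated FaDu. The code was tested on simulated data. Exact permutation of 3 against 3 libraries cannot give a two-sided p below 0.1, so none was run. The 15 genes with the largest fitted fold change in each direction, list members (at most about 6 a list), MET and genes of the windows of 31 neighbors were named. TNFRSF10A, TNFRSF10D, MATK, GPX3 and CLIC5 were named after their values were seen. Some genes are not reported here by name. Members and lists were chosen with earlier results of these data known. Promoters are from RefSeq (GRCh38.p14). Alternatives were other scalings (DESeq2 1.42.0 size factors, upper quartile), filters, DESeq2 with and without prior, glmTreat, the 2 lines alone, a block for the replicate number, no overlapping genes, and each untreated library left out.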

Additional observations from a re-analysis of the deposited data

Results flagged for a closer look

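For 3 of the genes named in the report, the difference between the lines was not the same in the untreated and the HGF-treated libraries by a test of the difference itself (edgeR's quasi-likelihood test of the interaction, Benjamini-Hochberg adjustment over 15475 genes). For INSR, the insulin receptor gene, the log2 line difference in untreated libraries exceeded that with HGF by 1.12 (SE 0.184, adjusted p = 0.0297). For CLIC5, of the chloride channel family, it exceeded it by 2.9 (SE 0.562, adjusted p = 0.0661). For MMP1, interstitial collagenase, the untreated value minus that with HGF was -2.3 (SE 0.486, adjusted p = 0.0893). The number of genes that passed this test ranged from 4 to 450 when 1 untreated library was left out.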

How the results depend on the processing

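Over the alternatives tried, the genes called numbered 8194 to 9979 and those past 4-fold 1713 to 2273, except that glmTreat against a log2 fold change of 2 gave 1248 (801 higher in Detroit 562 and 447 in FaDu). With 1 untreated library left out they were 9351 to 9498 and 2116 to 2158. No scaling moved the median of all genes by more than 0.0336. Windows past the median of 1 were 5.25% to 10.1% of all. The genes with unlike line differences in untreated and HGF-treated libraries numbered 37, but 260 by DESeq2 without and 268 with its prior and 240 with a replicate block, and from 4 to 450 with 1 library left out. The cause was not tested. Whether equal replicate numbers mark a shared run is not stated, and same-numbered untreated libraries of the 2 lines deviated together at correlations of 0.203, 0.0999 and 0.326, with 5 of 6 libraries correlating best with their own number. With the replicate block 9525 genes were called and 2123 were past 4-fold, 2112 of them shared with the fit without it.

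Of 228 named genes, 197 kept their direction and their side of the threshold in every alternative that tested them. DESeq2 gave no adjusted p for 9 genes. KLK7 was called with both DESeq2 fits, the 2 lines alone and the replicate block (adjusted p 0.0632, 0.0686, 0.02 and 0.0623). KRT8 was not called with DESeq2 size factors or in the 2 lines alone (adjusted p 0.103 and 0.168), and BMP7 (-1.87), MMP13 (1.96) and PKP1 (-1.98) fell short of 4-fold with the DESeq2 prior. Without replicate 3 of Detroit 562, GCLM (-1.95) and PKP1 (-1.81) fell short of 4-fold, KRT8 (-0.27) and VIM (-1.88) were no longer called, and AREG (-0.57), BNC1 (-0.48), HK2 (-0.44), MMP14 (0.50) and SNAI2 (-0.49) were. Without replicate 1 of FaDu, GCLM (-1.93) and PKP1 (-1.98) fell short of 4-fold, KRT8 (-0.22) was not called, and AREG (-0.42), BNC1 (-0.42) and SNAI2 (-0.43) were. Without replicate 2 of FaDu, PKP1 (-1.99) fell short of 4-fold, KRT8 (-0.37) was not called, and BNC1 (-0.41), MMP14 (0.44) and PAX9 (0.45) were. Without replicate 3 of FaDu, S100A2 (-0.37) and VIM (-1.49) were not called, while CCND1 (0.44) was. Without replicate 1 of Detroit 562, VIM (-1.66) was not called, and CCND1 (0.48) and MTAP (0.40) were.

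Genes near 0 that were not called changed sign. With upper-quartile scaling ZNF527 had a log2 fold change of -0.020. With 1 library left out the range was -0.16 to 0.40 for CD68, -0.18 to 0.28 for COL7A1, -1.84 to 1.91 for DCN, -0.028 to 0.074 for EGFR, -0.34 to 1.00 for EGR1, -0.17 to 0.037 for GAB1, -0.26 to 0.063 for HES1, -0.15 to 0.020 for IL18, -0.60 to 0.16 for KRT13, -0.35 to 0.080 for KRT18, -0.16 to 0.017 for LDHA, -1.17 to 0.20 for LRRN4 and -0.043 to 0.069 for ZNF527. Of list medians, that of the HOX genes turned from -0.22 to 0.63 without overlapping genes. At these depths a gene below 3 counts in a library was not detectable, which does not show that it is absent.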
